A study of Mus musculus with 2 samples.

Results

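Distal accessible regions lie away from gene starts, and in this data set they made up the largest class of peaks. A distal peak was here a peak on chromosomes 1 to 19 whose nearer edge lay 10 to 100 kb from the closest transcription start site (TSS) interval of any gene row in the deposited feature list. By this rule 39492 of 91223 peaks (43.3%) were distal, or 44.2% of the autosomal peaks. The peaks were compared between the 200 spots with the highest share of UMIs (unique molecular identifiers, 1 per RNA molecule counted) in Acta1, Ttn and Tnnt3, and the spots in the lower part of that share. The rule took no value from the peak counts.

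SPARC-seq read RNA and open chromatin from the same barcoded spots of brain tissue from mouse embryos at E18.5, and the number of embryos is not given in the sources used here. There was 1 RNA library and 1 library of genomic DNA, in which counts are cut sites of the transposase. Both carried the same genotype, a homozygous Ctcf mutation (CTCF-R567W, introduced with CRISPR/Cas9) on a C57BL/6 background, so no second genotype entered any comparison. With 1 library per assay there were no replicates, no test between conditions was possible, and every interval given below is a 95% interval for counting error alone. The filters kept 1992 barcoded spots, each a small area of tissue that can hold several cells. The muscle-rich group held 200 spots with 0.341 to 1.45% of their UMIs in the 3 genes (median 0.439%), and the comparison group held 996 spots at or below 0.158% (median 0.111%). The remaining 796 middle spots were used for no choice. Neuron markers were present in the tissue, labelled brain (median 0.282% of UMIs per comparison spot), but so were muscle markers, with a median of 0.321% per comparison spot over 9 muscle genes other than those 3. Peak counts summed to 2564013 in muscle-rich, 7419972 in comparison and 6658772 in middle spots, with medians of 12170, 7329 and 7448.5 per spot.

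Distal accessible regions include enhancers, stretches of DNA where transcription factors bind and act on genes at a distance, often in particular cell types. Gene starts tend to be open in many cell types at once, whereas distal elements differ more between them. The nearest gene is a convenient label for such a region and need not be the gene it acts on. In skeletal muscle, enhancers are bound by basic helix-loop-helix factors such as MyoD at E-boxes and by MEF2 factors, and in developing neurons by neurogenic helix-loop-helix, homeodomain and POU factors.

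The members that differed most between the 2 groups of spots are shown by their central 300 bases, on the + strand of GRCm38 (mm10), so that the regions behind the values can be read. Each is named by its nearest gene row. Capitals mark matches, on either strand, to the short motifs searched: CAGCTG (E-box, the same on both strands), CAGATG (E-box), TAAAAATA (MEF2), TGANTCA (AP-1), TAATTA (homeodomain), CATTCC (TEAD), TGTGGT (RUNX), ATTTGCAT (POU), and the CArG box, the NFI palindrome and a CTCF core searched under those names. In the region near Gm37134 a CAGATG and a TGTGGT share bases and form 1 run of capitals. A match is a match of letters and not evidence of binding, and the lack of one says only that these letters are not in this window. The 6 regions that ranked first among those more accessible in the muscle-rich spots were as follows.
Eln chr5:134772513-134772812: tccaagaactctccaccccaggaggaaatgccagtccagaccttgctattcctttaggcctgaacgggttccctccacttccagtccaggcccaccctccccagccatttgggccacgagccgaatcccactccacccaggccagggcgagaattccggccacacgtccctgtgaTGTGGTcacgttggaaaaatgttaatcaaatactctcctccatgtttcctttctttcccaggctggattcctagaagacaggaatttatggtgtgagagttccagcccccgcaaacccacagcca
Gm45218 chr6:91620252-91620551: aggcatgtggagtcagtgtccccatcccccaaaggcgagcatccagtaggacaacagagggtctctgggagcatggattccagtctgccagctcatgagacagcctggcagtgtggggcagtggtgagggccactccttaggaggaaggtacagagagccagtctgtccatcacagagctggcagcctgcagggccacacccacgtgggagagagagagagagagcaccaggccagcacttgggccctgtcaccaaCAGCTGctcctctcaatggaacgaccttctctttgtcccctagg
Gm4265 chr7:130016304-130016603: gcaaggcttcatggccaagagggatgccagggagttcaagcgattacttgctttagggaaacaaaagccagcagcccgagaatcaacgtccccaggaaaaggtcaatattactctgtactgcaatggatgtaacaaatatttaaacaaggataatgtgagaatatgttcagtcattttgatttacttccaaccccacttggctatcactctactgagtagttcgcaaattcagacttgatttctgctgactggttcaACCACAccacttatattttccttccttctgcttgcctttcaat
Gm37134 chr1:186263952-186264251: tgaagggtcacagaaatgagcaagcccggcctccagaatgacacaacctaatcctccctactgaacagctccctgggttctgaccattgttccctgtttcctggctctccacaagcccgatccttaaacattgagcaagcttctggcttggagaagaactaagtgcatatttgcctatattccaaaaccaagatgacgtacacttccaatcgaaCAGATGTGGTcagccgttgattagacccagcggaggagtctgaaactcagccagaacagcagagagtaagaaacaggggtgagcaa
Lifr chr15:7065121-7065420: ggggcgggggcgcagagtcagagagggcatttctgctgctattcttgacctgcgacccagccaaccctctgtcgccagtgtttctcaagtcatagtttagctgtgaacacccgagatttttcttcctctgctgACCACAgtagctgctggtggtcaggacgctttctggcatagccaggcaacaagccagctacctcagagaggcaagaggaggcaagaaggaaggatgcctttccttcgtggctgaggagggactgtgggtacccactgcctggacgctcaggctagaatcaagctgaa
Dcps chr9:35156248-35156547: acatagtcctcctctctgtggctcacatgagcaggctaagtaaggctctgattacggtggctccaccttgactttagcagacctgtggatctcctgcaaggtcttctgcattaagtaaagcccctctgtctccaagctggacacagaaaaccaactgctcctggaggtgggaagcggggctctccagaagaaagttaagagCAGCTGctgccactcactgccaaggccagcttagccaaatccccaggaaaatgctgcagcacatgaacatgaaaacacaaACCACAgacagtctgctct
The first 4 of those less accessible in the muscle-rich spots were as follows.
4933407L21Rik chr1:85917126-85917425: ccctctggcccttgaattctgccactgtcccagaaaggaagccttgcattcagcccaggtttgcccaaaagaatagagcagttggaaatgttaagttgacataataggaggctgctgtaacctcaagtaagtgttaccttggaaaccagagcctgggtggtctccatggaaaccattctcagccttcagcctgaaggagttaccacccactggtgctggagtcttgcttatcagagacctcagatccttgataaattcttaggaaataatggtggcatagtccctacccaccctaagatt
Esd chr14:74798150-74798449: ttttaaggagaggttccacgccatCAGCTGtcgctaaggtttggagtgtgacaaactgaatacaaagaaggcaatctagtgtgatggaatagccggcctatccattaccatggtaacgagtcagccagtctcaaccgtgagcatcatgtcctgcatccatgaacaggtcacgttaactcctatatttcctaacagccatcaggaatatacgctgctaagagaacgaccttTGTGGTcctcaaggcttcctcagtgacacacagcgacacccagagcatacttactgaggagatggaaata
B230214G05Rik chr15:88290802-88291101: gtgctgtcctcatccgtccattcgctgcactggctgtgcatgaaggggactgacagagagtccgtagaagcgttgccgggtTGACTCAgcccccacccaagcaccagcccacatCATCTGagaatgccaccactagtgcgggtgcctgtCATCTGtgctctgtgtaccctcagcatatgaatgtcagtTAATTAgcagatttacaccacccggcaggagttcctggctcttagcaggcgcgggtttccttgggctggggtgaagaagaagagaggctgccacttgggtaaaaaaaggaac
Gm10791 chr16:84916959-84917258: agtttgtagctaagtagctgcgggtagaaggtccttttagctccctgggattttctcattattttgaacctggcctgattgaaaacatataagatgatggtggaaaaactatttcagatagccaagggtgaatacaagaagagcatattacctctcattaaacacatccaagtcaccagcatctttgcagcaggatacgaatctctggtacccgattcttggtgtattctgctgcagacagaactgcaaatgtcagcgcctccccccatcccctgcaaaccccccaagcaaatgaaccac
All 6 of the first set held at least 1 motif match, as did 2 of the second set, in which the regions near 4933407L21Rik and Gm10791 held none. Several of these motifs are common. Among all distal peaks with at least 50 counts in both groups together, CAGCTG lay in 27.8%, CAGATG in 27.4%, TGTGGT in 23.6% and CATTCC in 18.1%. The share of such peaks with any match is not given here, so these counts do not tell the 2 sets apart.

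Most of the distal peaks were small. They held 4712536 cut-site counts, 28.3% of all peak counts (28.29 to 28.34%), against 51.6% for the 24455 peaks at or within 1 kb of a TSS interval, which were 26.8% of the peaks. The median distal peak had 94 counts (quartiles 70 and 135, range 12 to 26163), and the median TSS peak had 205. Width did not set them apart, with a median of 873 bp for distal and 877 bp for TSS peaks. The median distance to the nearest TSS interval was 31.4 kb (quartiles 18.7 and 53.1). Distal peaks were spread over 13136 nearest genes, with at most 22 at 1 gene. By annotation 47.6% had their centre in an intron, 46.9% between genes and 5.44% in an exon, whereas 32.3% of TSS peaks were centred in an exon. Their central 300 bases had a median GC content of 50% and a mean of 4.87 CpG dinucleotides, against 57.3% and 16.2 for TSS peaks.

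Counts were unevenly spread over the distal peaks. The 10 with most counts held 2.49% of all distal counts and the 100 with most 4.64%, and between the seventh and the eighth in rank the count went from 8289 to 3124. The 5 largest had 26163 (chr11:109011342-109012316, between genes), 22780 (chr1:24612387-24613246, near Col19a1), 14885 (chr3:5860184-5861088), 13138 (chr5:146260668-146261610, in an intron of Cdk8) and 12239 counts (chr17:36230966-36231882). All 5 were lower in the muscle-rich spots, with ratios of 0.63, 0.71, 0.65, 0.79 and 0.82. The peak near Col19a1 matched the mitochondrial genome at 99.8% identity over all of its 860 bases, so its counts cannot be told apart from mitochondrial reads. Of the 20 largest distal peaks 1 matched the mitochondrial genome and 4 had another copy on the chromosomes (at least 90% identity over at least 50% of the peak). None of the 22 members named below for their ratio had either. The third largest peak (chr3:5860184-5861088) was among the 4 with another copy, at 94.3% identity.

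The share of counts in distal peaks was nearly the same in all groups of spots, 28.2% in muscle-rich, 28.4% in comparison and 28.3% in middle spots. The ratio of muscle-rich to comparison spots for the whole class was 0.995 (0.993 to 0.998). Within that flat sum, individual regions went both ways. A ratio was formed for the 24141 distal peaks with at least 50 counts in both groups together, as CPM (counts scaled to each group's total of peak counts) in muscle-rich over comparison spots. The other 15351 were under the minimum. Of those with a ratio, 2899 (12.0%) were at least 2-fold higher in muscle-rich spots and 4387 (18.2%) were at most 0.5 times as high, against 10.4% and 15.6% of all 60703 peaks that passed the minimum. Against a narrower comparison group, the lowest spots by muscle share, the excess of lower members was not seen (1771 higher and 1706 lower). The median ratio was 0.927 (quartiles 0.591 and 1.45), and over all peaks 0.955. The interval lay above 1 for all 2899 higher peaks and below 1 for 4182 of the lower ones. The same counts chose these peaks, so this follows largely from the 2-fold limits and the minimum of 50 counts. It is no separate support for the calls. The counts of these peaks were low, with medians of 77 for the higher and 75 for the lower peaks over both groups. In 28 of the peaks with a ratio no count fell in the muscle-rich spots, and in none was the comparison group at 0. The muscle-rich spots had fewer peak counts in all (2564013 against 7419972), which lowers the count expected there. At a ratio of 1, the peaks named below with 0 there had 23.2 (near Insyn2b) to 53.6 (near 4933407L21Rik) counts expected. The minimum was set on raw counts of both groups summed. A peak open only in comparison spots therefore passed it at a lower CPM than one open only in muscle-rich spots. With no minimum beyond 1 count 11.9% were higher and 19.1% lower. The part of the lower total and of the minimum in the zeros and in the balance of the 2 directions was not tested.

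**Figure D1:**
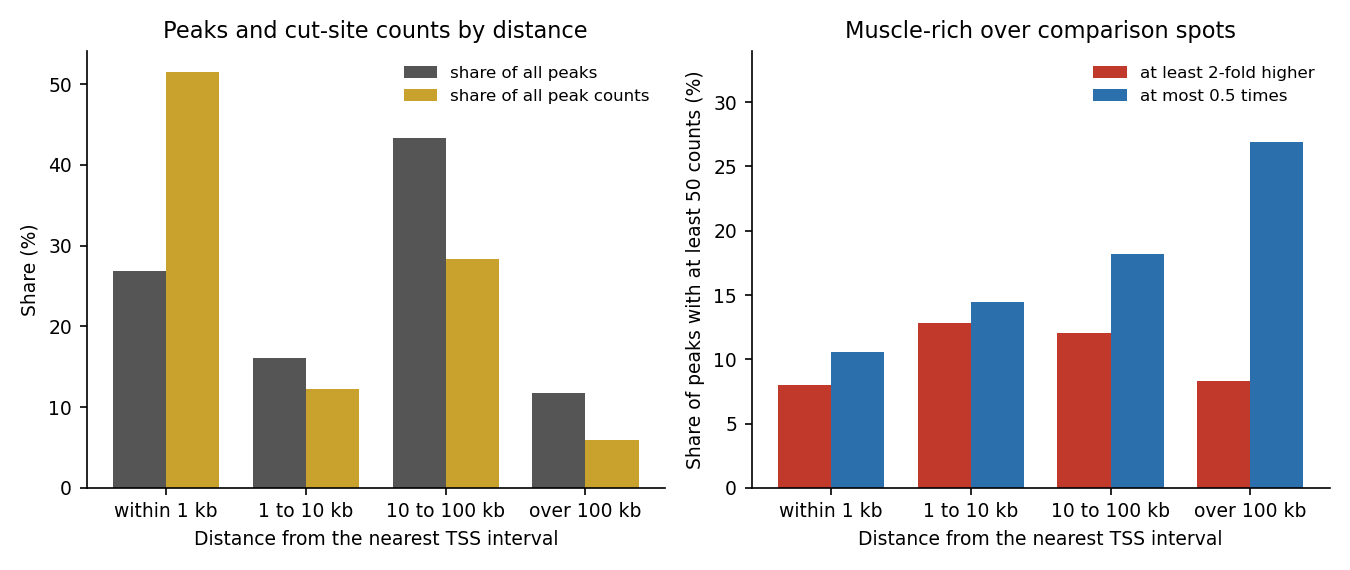
Peaks by distance from the nearest TSS interval. Left, bars give the share (%) of all peaks and of all cut-site counts per distance class, where distal peaks (10 to 100 kb) are 43.3% of the peaks and 28.3% of the counts. Right, bars give the share (%) of peaks with at least 50 counts that were at least 2-fold higher or at most 0.5 times as high in muscle-rich as in comparison spots, 12.0% and 18.2% for distal peaks.

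The balance of the 2 directions moved with distance. From 10 to 20 kb 13.2% of distal peaks were higher and 16% lower (median ratio 0.981), and from 50 to 100 kb 10.4% were higher and 21.8% lower (median ratio 0.859), with the bins between them in order. Peaks beyond 100 kb continued it, with 8.27% higher and 26.9% lower, and peaks within 1 kb had the fewest in both directions together (8.02% and 10.5%). Peaks from 1 to 10 kb had 12.8% and 14.5%. Median counts per peak also fell with distance, from 205 within 1 kb to 105 at 1 to 10 kb, 94 for distal peaks and 77 beyond 100 kb. The part of this in the shares was not tested. Nothing changed abruptly at the inner limit of the class, where the nearest peaks on either side lay at 9.999 and 10.001 kb. From 9 to 10 kb 14.7% of 936 peaks were higher and 15.3% lower, and from 10 to 11 kb 14% of 852 and 16.2%. By chromosome the higher share ran from 10.6 to 14.7%, highest on chromosome 11, and the lower share from 15.3 to 20.5%.

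**Figure D2:**
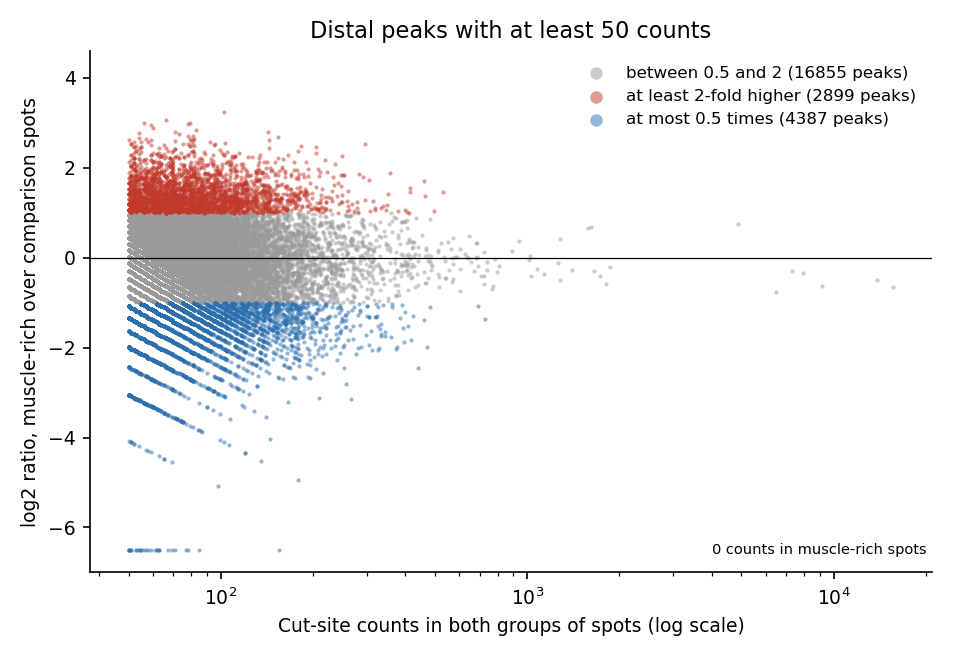
Every distal peak with at least 50 counts, with its cut-site counts in both groups of spots (x axis, log scale) and its log2 ratio of CPM in muscle-rich over comparison spots (y axis). Points are coloured by direction (2899 higher, 4387 lower, 16855 between), and the 28 peaks with 0 counts in muscle-rich spots are drawn in a row at the bottom.

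The 12 members with the highest lower bound of the ratio lay near Eln, Cdh5, Axl, Lifr, Dcps and 7 gene rows with little or no RNA, and none was nearest to a gene of the contractile apparatus. Their ratios ran from 5.54 to 9.41. The first (chr5:134772173-134773153) lay 24.8 kb from Eln, which encodes elastin, the core protein of elastic fibres, in an intron of Gm30003. It had 78 counts in 37 of the muscle-rich spots and 24 counts in 13 of the comparison spots, a level of 30.4 against 3.23 CPM and a ratio of 9.41 (5.89 to 15.5). A fragment can give 2 counts, which makes these intervals too narrow, and counted as fragments the same peak had 40 against 13 and a ratio of 8.96 (4.69 to 18.3). Eln RNA was also higher, with 227 against 397 UMIs and a ratio of 2.65 (2.24 to 3.13).

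A region 78.1 kb from Cdh5, the cadherin of endothelial junctions, held the most counts of the 12 (chr8:104022650-104023557). It had 196 counts in 74 muscle-rich spots and 99 in 53 comparison spots, a ratio of 5.73 (4.48 to 7.37), while Cdh5 RNA had 18 and 50 UMIs and a ratio of 1.67 (0.917 to 2.91). Near Axl, a receptor tyrosine kinase, a region at 13.4 kb had 59 against 24 counts and a ratio of 7.11 (4.36 to 12.0), with an RNA ratio of 1.64 (1.08 to 2.45). At 63.8 kb from Lifr, the receptor of leukemia inhibitory factor, 57 and 21 counts gave 7.85 (4.69 to 13.6), and at 19.2 kb in an intron of Dcps, a scavenger of mRNA caps, 106 and 48 counts gave 6.39 (4.50 to 9.19). Dcps RNA did not share that direction, with 14 and 90 UMIs and a ratio of 0.721 (0.379 to 1.27).

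Of the other 7, none had a nearest gene row with more than a few UMIs, and 6 of them lay between genes. The closest genes with at least 10 UMIs were Fgfr2 (a fibroblast growth factor receptor, 249.3 kb away) for the region near Gm4265 with 100 against 42 counts (ratio 6.89, 4.76 to 10.1), and Pmepa1 (a gene that responds to TGF-beta, 75.5 kb away) for the region near Gm14642 with 134 against 70 counts (5.54, 4.12 to 7.51). The RNA ratio of Fgfr2 was 1.05 (0.886 to 1.23) and that of Pmepa1 1.38 (1.14 to 1.66). The other 5 lay near Gm45218, Gm37134, I730028E13Rik, 5430421F17Rik and, in an intron of the semaphorin receptor gene Nrp2, Gm29083, with ratios of 7.99, 8.34, 6.17, 7.78 and 7.91.

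In the other direction stood the 10 members with the lowest upper bound of the ratio, of which 7 had no count in the muscle-rich spots. The first (chr1:85916822-85917730), 10.8 kb from 4933407L21Rik, had 155 counts in 76 comparison spots and 0 in muscle-rich spots. With a floor of 3 counts in place of 0 it was 17.9-fold lower. The upper limit of its ratio was 0.0697, and 0.136 when counted as fragments (0 against 81). A region in an intron of Lrch1, 61.9 kb from Esd, had 2 counts in 1 muscle-rich spot and 177 in 89 comparison spots, a ratio of 0.0327 (0.00393 to 0.120). At Trim9, a ubiquitin ligase of brain neurons, an intronic region had 0 and 77 counts. It was 8.87-fold lower with the same floor, and the upper limit of its ratio was 0.142 (0.289 as fragments). Trim9 RNA had a ratio of 0.686 (0.538 to 0.865). At Grik3, a kainate receptor subunit, an intronic region had 2 and 133 counts, a ratio of 0.0435 (0.00522 to 0.160), while the RNA ratio was 0.824 (0.700 to 0.965).

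The remaining 6 were near B230214G05Rik (0 against 85 counts), Gm10791 (0 against 78), Gm30015 (0 against 71), Aven (0 against 69), Insyn2b (0 against 67) and Myh13 (1 against 97). Aven, an inhibitor of apoptosis, went the other way in RNA, with 21 and 50 UMIs and a ratio of 1.95 (1.11 to 3.30). Myh13, a myosin heavy chain of extraocular muscle, had only 5 and 7 UMIs. Its region gave a ratio of 0.0298 (0.000748 to 0.170), in the direction opposite to the muscle share that defined the spots.

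The middle spots, in which no peak was chosen, gave a second reading of the same members. They came from the same libraries and in part from the same barcode positions as the muscle-rich spots, so they are no independent sample. The 398 middle spots with the higher muscle share (median 0.249%) were set against the other 398 (median 0.179%), a much narrower contrast. The members higher in muscle-rich spots had 108383 against 69593 counts, a ratio of 1.39 (1.38 to 1.40), and 2252 of the 2877 with at least 20 counts (78.3%) lay above 1. The lower members had a ratio of 0.789 (0.783 to 0.795), with 1271 of 4325 (29.4%) above 1. All distal peaks with a ratio had 0.984, with 11557 of 23794 (48.6%) above 1. Of the 12 highest members 11 lay above 1 there, from 1.19 to 3.85 (near Gm4265), and the region near Gm37134 was at 0.803 (0.400 to 1.60). Of the 10 lowest 8 lay below 1, and those near Grik3 (1.14, 0.737 to 1.77) and B230214G05Rik (1.10, 0.597 to 2.06) above it. Single members had few counts there, and the interval lay above 1 for 7 of the 12 and below 1 for 4 of the 10, and held 1 for the other 5 and 6.

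**Figure D3:**
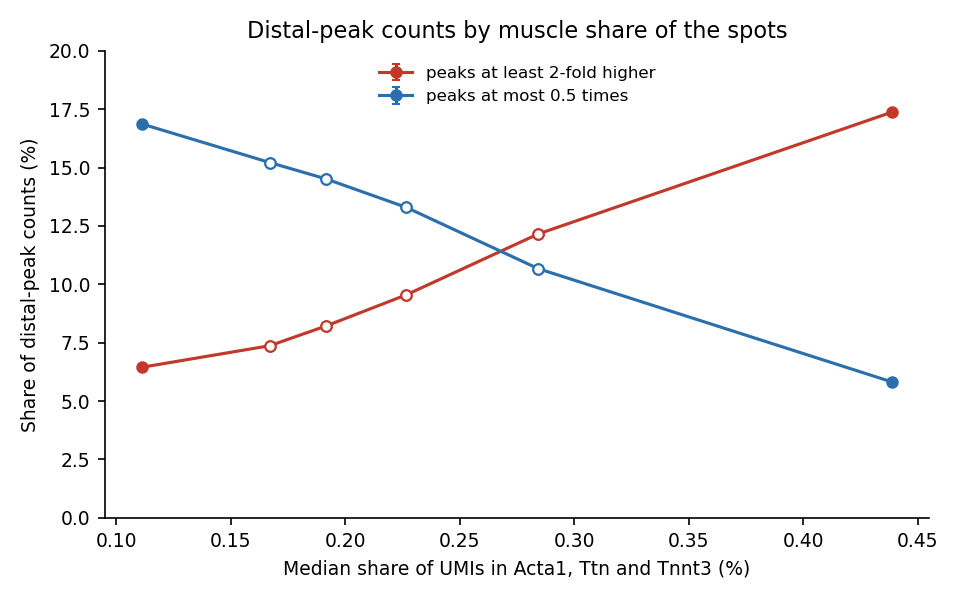
Share (%) of distal-peak counts that fell in the higher and in the lower members, against the median share (%) of UMIs in Acta1, Ttn and Tnnt3, for the comparison spots, 4 bins of 199 middle spots each (open points) and the muscle-rich spots. Bars are 95% exact binomial intervals (counting error only). The higher members go from 6.45 to 17.4% and the lower from 16.9 to 5.82% across the 6 points, with the 4 middle bins between them.

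Other properties of the spots moved along with this share. In order from comparison spots through the 4 bins of middle spots to muscle-rich spots, the higher members took 6.45, 7.37, 8.22, 9.55, 12.2 and 17.4% of distal counts. The first and last of these follow from the choice of the members, and the 4 between them do not. Connective tissue and bone markers took 0.113, 0.123, 0.136, 0.183, 0.261 and 0.304% of UMIs over the same spots, and neuron markers 0.287, 0.281, 0.268, 0.279, 0.243 and 0.183%. Beside the 3 genes that chose the spots, all 9 other muscle markers were at least 2-fold higher in muscle-rich spots (summed ratio 3.87, 3.78 to 3.97). All 10 connective markers were above 1 (7 at least 2-fold, summed 2.69). The interval held 1 for Sp7 (2 against 1 UMIs, among the 7), Twist1 (3 against 10) and Dcn (27 against 84). All 3 epithelial markers were at least 2-fold higher (summed 3.24). Of the 8 neuron markers 7 were below 1 (summed 0.638), and all 5 radial glia markers were (summed 0.699). Per spot, connective markers ran from 0 to 1.25% of UMIs (median 0.277%) in muscle-rich and from 0 to 1.82% (median 0.0979%) in comparison spots. None of these lists had a marker at 0 in the muscle-rich spots, and muscle and connective tissue markers were higher in the same spots. The part of each in the result was not tested. Fewer cells of a type and less RNA per cell cannot be told apart in such spots.

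The position on the barcode grid and the fragment lengths moved too. A barcode joins 2 segments, and 163 of the 200 muscle-rich spots had 1 of 6 of the 48 second segments. These 6 segments held 279 spots in all, of which 8 were comparison spots, so middle spots shared them as well. The choice of members used the muscle-rich and the comparison spots. In these 6 segments the higher members took 14.2 to 18.4% of distal counts and the lower ones 5.72 to 7.87%. In the other 42 segments they took 5.66 to 18.9% and 7.85 to 19.4%, but these limits came from segments with few spots. The segment at 18.9 and 7.85% had 2 spots, and the one at 5.66 and 19.4% had 4. Only the former of the 42 was above 14.2% for the higher members. The next, with 37 spots, had 13.8 and 9.68%. Short fragments, below the length of DNA around a nucleosome, were 54.0% of all fragments in muscle-rich and 44.8% in comparison spots, and 55.5% against 47.2% within distal peaks. The part of either in the ratios was not tested. The share of fragments in peaks was alike (19.3 and 18.9%).

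The cut-site profiles of the higher and lower members restate their choice in the muscle-rich and comparison spots, and only the middle spots took no part in it. For the higher members, density at the centre over that at the flanks was 9.38 in muscle-rich, 5.58 in middle and 3.83 in comparison spots. For the lower members it was 2.85, 6.49 and 7.98, and for all other distal peaks 5.98, 6.11 and 6.06. The flanks themselves differed less than the centres, by 0.0249 against 0.0194 cut sites per peak and bin, scaled to the fragments of each group, for the higher members, whose centres had 0.233 against 0.0741.

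**Figure D4:**
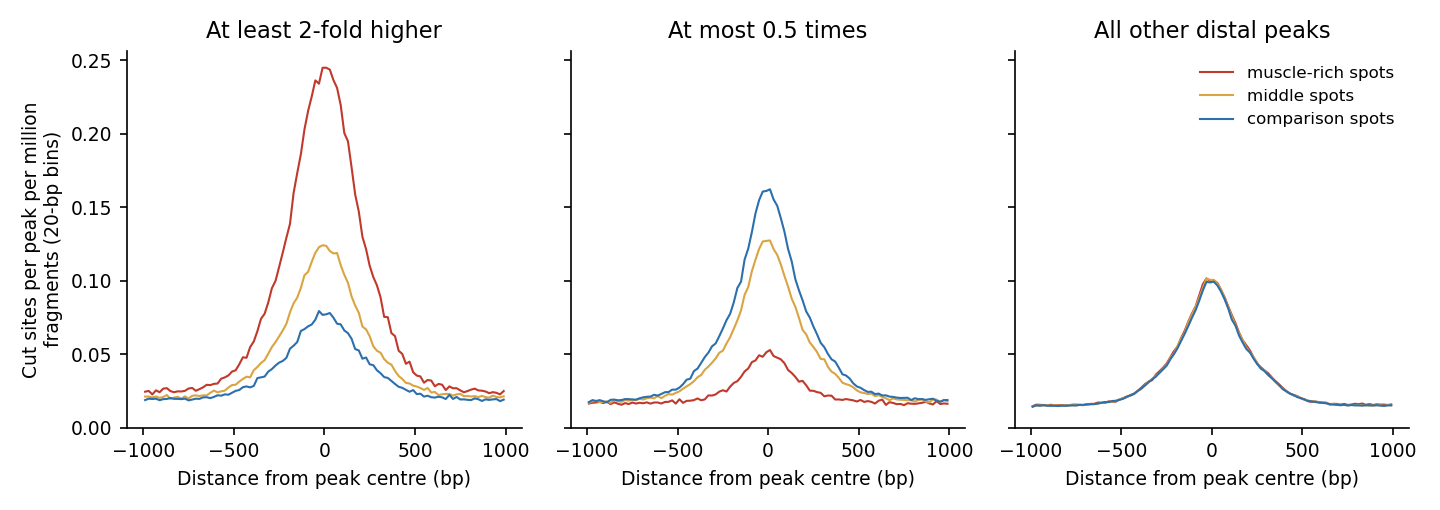
Cut sites per peak, per 20-bp bin, scaled to the fragments of each group of spots (y axis), by distance from the peak centre in bp (x axis) for the higher, the lower and all other distal peaks. Lines are muscle-rich, middle and comparison spots. The middle spots lie between the other groups in the first 2 panels, and the 3 lines nearly coincide in the third (centre over flank 5.98 to 6.11).

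RNA of the nearest gene took no part in the choice of the peaks, with Acta1, Ttn and Tnnt3 left out. The genes nearest to higher members had a median RNA ratio of 1.05 (1211 genes with at least 20 UMIs, 57.4% of them above 1), those nearest to lower members 0.929 (1672 genes, 39.4% above 1) and those nearest to any distal peak with a ratio 0.976 (5277 genes, 46.9% above 1). Before the minimum of 20 UMIs, 2223 genes were nearest to a higher member and 3299 to a lower one. Of these 503 were nearest to both, so the 2 sets share genes. Differences past 2-fold were few. Among genes near higher members 93 (7.68%) had RNA at least 2-fold higher and 28 (2.31%) at most 0.5 times as high. Near lower members these were 68 (4.07%) and 57 (3.41%). Of the 5277 genes near any distal peak with a ratio they were 307 (5.82%) and 160 (3.03%), and of all 14186 genes 6.00% and 3.79%. Peaks at the genes' own TSS were further apart than the RNA, with a median ratio of 1.16 for 1122 genes of higher members, 0.944 for 1480 genes of lower members and 1.03 for 4754 genes of all.

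Among the gene lists, the one of connective tissue and bone had the most members in the higher direction. Of 131 distal peaks whose nearest gene was on it 80 had a ratio, and of these 26 (32.5%) were higher and 1 (1.25%) lower, against 12.0% and 18.2% of all distal peaks with a ratio, with a median of 1.34 against 0.927 over all distal peaks. Counts per gene given here and for the other lists are of members with a ratio. The counts of all 131 summed to a ratio of 1.51 (1.45 to 1.58), and in the middle spots to 1.25 (1.19 to 1.31). At Col5a1, a collagen of fibril assembly, 8 members had ratios of 0.781 to 5.70 and 4 were higher, led by 63 against 32 counts at 37.3 kb. At Col1a2, a chain of the main collagen of bone and skin, 4 of 5 were higher, led by 39 against 23 counts at 85.7 kb (ratio 4.91, 2.86 to 8.61). At Col1a1, the partner chain, 3 of 4 were higher (99 against 121, 58 against 69 and 70 against 62 counts, ratios 2.37, 2.43 and 3.27), beside a TSS peak at 6.31 and an RNA ratio of 2.87 (2.70 to 3.05).

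Single members stood near Postn, a matrix protein of periosteum (34 against 19 counts, ratio 5.18, 2.87 to 9.61), and near Dcn, a small proteoglycan (42 against 27 counts, 4.50, 2.71 to 7.59). At Col6a2 3 of 4 were higher, from 1.22 to 3.84. Near Col2a1, the main collagen of cartilage, no member was past 2-fold, and the one with most counts had 94 against 310 (0.88). Over the list the median RNA ratio was 2.07 (20 of 35 genes at least 2-fold higher) and the median TSS peak 2.19 (19 of 29).

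Distal peaks near muscle contraction genes were called about as often as distal peaks at large. Of 74 on the list 40 had a ratio, 6 (15%) were higher and 6 (15%) lower, against 12.0% and 18.2%, with a median of 1.03 and a summed ratio of 1.05 (0.984 to 1.13). The RNA of the same list had a median ratio of 3.66, with 56 of 66 genes at least 2-fold higher, and the peaks at 22 of its gene starts had a median of 1.66. Only 30 of the 67 genes on the list were nearest to a distal peak. The RNA and TSS medians therefore also cover genes without one. The higher members lay near Mylk4, a myosin light chain kinase (29 against 22 counts, 3.81, 2.12 to 6.97), Tpm1, a tropomyosin (55 against 58, 2.74), Mybpc1, a myosin-binding protein of slow muscle (26 against 28, 2.69), Jph2, which couples the sarcoplasmic reticulum to the surface membrane (34 against 38, 2.59), Sgcd and Myom3. The lower members included those near Myl1, a fast light chain (6 against 69 counts, 0.252, 0.0893 to 0.576), Cav3, the caveolin of muscle (5 against 56, 0.258), and Klhl41 (12 against 80, 0.434), while the RNA of these 3 genes was 3.90, 2.99 and 4.52 times as high. Mylk4 had 1 member in each direction.

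Of the 3 genes that defined the spots, only Ttn was nearest to any distal peak. Its 2 members had 6 against 18 and 8 against 30 counts, under the minimum, and no distal peak had Acta1 or Tnnt3 as its nearest gene. The regulators of muscle had 71 distal peaks, near 20 of the 37 genes on the list. Of these peaks 39 had a ratio, 8 (20.5%) higher and 7 (17.9%) lower against 12.0% and 18.2%. The median was 1.01 and the summed ratio 1.09 (1.02 to 1.17), beside an RNA median of 2.51 over 24 genes of the list. At Mef2c, which also stands on the neuron list, both were higher (27 against 24 and 25 against 28, ratios 3.26 and 2.58). The 2 members near Myog, the myogenic factor of differentiation, were at 0.965 and 1.26 while its TSS peak was at 3.17 and its RNA at 3.26, and the 6 members near Pax7, which marks satellite cells, ran from 0.664 to 1.95.

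**Figure D5:**
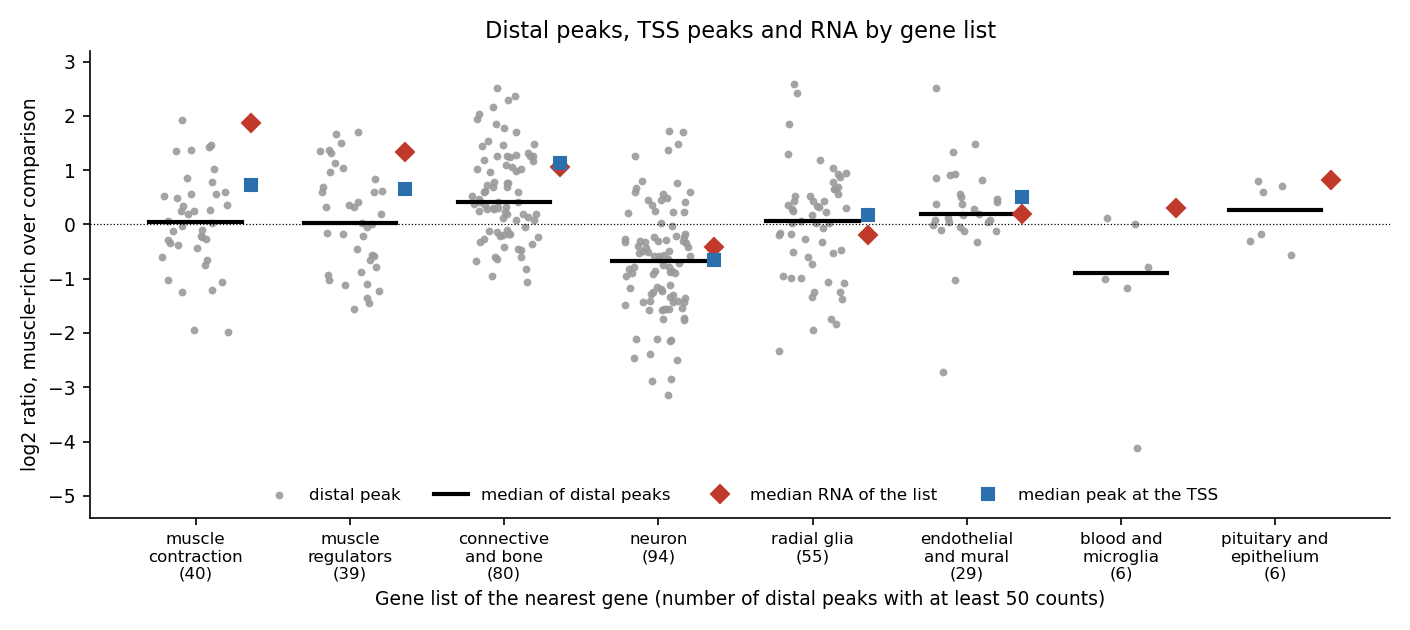
Log2 ratio of muscle-rich over comparison spots (y axis) for each distal peak with at least 50 counts, by the list its nearest gene is on (number of peaks in brackets). Black lines are medians of the distal peaks, diamonds the median RNA ratio of the list and squares the median of the peaks at the TSS (lists with at least 5). Diamonds and squares also take in genes of the list without a distal peak. The muscle contraction list has a distal median near 0 (ratio 1.03) below its RNA median (3.66), and the connective and neuron lists have medians of 1.34 and 0.629.

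Near neuronal genes the distal peaks were mostly on the lower side. Of 173 members 94 had a ratio, 5 (5.32%) were higher and 35 (37.2%) lower against 12.0% and 18.2% of all distal peaks with a ratio, with a median of 0.629, a summed ratio of 0.740 (0.706 to 0.776) and 0.886 (0.846 to 0.928) in the middle spots. Near Myt1l, a zinc finger factor that maintains neuronal identity, all 3 were lower, led by 10 against 255 counts at 31.9 kb (0.113, 0.0538 to 0.212). Near Gap43, a growth cone protein, 5 of 7 were lower, over a range of 0.139 to 0.855. Near Rbfox3, the gene of the neuronal marker NeuN, 4 of 9 were lower and 1, at 92.3 kb, was higher (44 against 53 counts, 2.40). The only member near Map2, a dendritic microtubule protein, with a ratio had 16 against 123 counts (0.376, 0.209 to 0.636), and 1 of those near Pou3f2, a POU factor of the cortex, had 4 against 86 (0.135, 0.0359 to 0.357).

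Differences in RNA were smaller, with a median of 0.751 over 50 genes of the list and none past 2-fold, and 13 of the 39 TSS peaks were at most 0.5 times as high (median 0.638). Not all neuronal genes shared the direction, and 2 of the 5 higher members were those near Mef2c. Of 9 members with a ratio near Foxp1, a forkhead factor, 1 was higher (2.80) and none lower, and Rbfox2 had a member with 71 against 62 counts (3.31, 2.32 to 4.74).

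Near radial glia genes the calls were about as frequent as over all distal peaks. Of 68 distal peaks 55 had a ratio, 6 (10.9%) were higher and 10 (18.2%) lower against 12.0% and 18.2%, and the median was 1.04. Near Slc1a3, the astroglial glutamate transporter, 14 members ran from 0.199 (9 against 131 counts, 70.3 kb) to 5.98 (62 against 30 counts, 95.3 kb), and the latter also stood at 5.26 in the middle spots. Near Nfia, a factor of glial fate, 1 member was at 5.32 (46 against 25 counts) and another at 0.397 (7 against 51). Near Hes1, a Notch target, 1 member was at 3.60 (41 against 33), and Hes5, another, had members at 0.874 (74 against 245) and 0.281 (19 against 196).

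Endothelial and mural genes had 47 distal peaks and 1024 against 2217 counts in all, a ratio of 1.34 (1.24 to 1.44). In the middle spots the same peaks summed to 1.07 (0.982 to 1.16), an interval that held 1. The Cdh5 region described above held 196 and 99 of these counts. Of 29 with a ratio 3 (10.3%) were higher and 2 (6.90%) lower against 12.0% and 18.2%, among the latter a member near Flt1, a VEGF receptor (6 against 115 counts, 0.151, 0.0543 to 0.339). The 5 members near Cdh5 ran from 0.923 to 5.73. The blood and microglia list had 6 members with a ratio, none higher and 3 lower (median 0.538), and in the middle spots it summed to 1.05 (0.848 to 1.30). The pituitary and epithelium list had 6, none past 2-fold in either direction (median 1.20).

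At a few genes many members went the same way. These genes were picked for their counts after the values were seen, so the counts are a description. Of 10142 genes with a member that had a ratio, 30 had at least 4 higher members and 22 had at least 5 lower ones, 3 and 2 of them with a member in the other direction. Over all distal peaks with a ratio 12.0% were higher and 18.2% lower. Both groups included gene rows with little or no RNA. Examples were 9430078K24Rik (7 of 20 higher, 1 against 1 UMIs), Gm29183 (6 of 9 higher, 0 UMIs) and Gm28979 (6 of 6 lower, 0 UMIs). The genes named here are examples chosen among those with a known product. All 5 members near Hspg2, which encodes the basement membrane proteoglycan perlecan, were higher (321 against 339 counts summed, 2.74), with a TSS peak of 2.11 and an RNA ratio of 2.51. Near Dlk1, a Notch ligand relative of immature mesenchymal tissue, 4 of 6 were higher (2.25) with an RNA ratio of 2.51, and near Gli2, a transcription factor of Hedgehog signalling, 4 of 10 (1.80) with an RNA ratio of 1.3. RNA did not always follow, since near Cyth3 and Med13l 4 of 4 and 4 of 7 members were higher with RNA ratios of 0.973 and 0.983.

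On the lower side, near Nfasc, a cell adhesion molecule of the axon initial segment, 6 of 7 were lower (111 against 844 counts, 0.381) with a TSS peak at 0.375 and RNA at 0.766. Near Slc6a11, a GABA transporter of astrocytes, 6 of 7 were lower (0.426) with RNA at 0.735. Near Slit1, an axon guidance ligand, 6 of 13 were lower (0.510), with a TSS peak at 0.397 and RNA at 0.934. Srgap3, a regulator in the Slit-Robo pathway, had 7 lower and 2 higher members of 11. TSS peaks and RNA did not always follow on this side either. Cdh23 had 6 lower members of 7 beside a TSS peak at 1.46 and RNA at 0.991. Kif26a had 5 lower members of 9 beside a TSS peak at 0.986 and RNA at 1.05.

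The sequences of the higher and the lower members differed in several short motifs, which the rule did not use. The shares that follow are each for higher members, lower members, all distal peaks with a ratio and all autosomal peaks. CAGCTG lay in the central 300 bases of 33.4%, 24.2%, 27.8% and 23.7%, and TGANTCA in 15.8%, 9.35%, 10.8% and 9.59%. CATTCC lay in 24.1%, 16.1%, 18.1% and 16.5%, TGTGGT in 30.4%, 21.1%, 23.6% and 21.3%, and TAAAAATA in 3.17%, 1.5%, 2.13% and 1.94%. These 5 were more frequent in the higher members and less frequent in the lower ones than in all distal peaks with a ratio. In the other direction, TAATTA lay in 5.21%, 7.52%, 5.51% and 4.87%, and ATTTGCAT in 1.03%, 2.62%, 1.68% and 1.57%. For TAATTA the interval of the higher members (4.43 to 6.08%) held the share of all distal peaks with a ratio. Only the lower members stood apart from it. The CTCF core lay in 0.828%, 3.08%, 3.08% and 1.87%, so the higher members stood below all distal peaks with a ratio and the lower members level with them. CAGATG was close to even, at 29.0%, 28.4%, 27.4% and 24.1%. The CArG box (1.86%, 1.21%, 1.38% and 1.24%) and the NFI palindrome (0.0345%, 0.0684%, 0.0704% and 0.0527%) were rare. Over all 39487 distal peaks with sequence, those under the minimum included, CAGCTG lay in 24.9% and the CTCF core in 2.16%.

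The higher members were slightly richer in GC (median 52.0% against 50%), so the shares were also read within 3 classes of GC content, divided at 47.7 and 52.0% GC. CAGCTG lay in 21.1, 31.8 and 38.3% of higher and 17.2, 24.5 and 30.4% of lower members from the lowest to the highest class. TGANTCA lay in 12.9, 15.5 and 16.9% against 10.6, 10.3 and 7.24%, and the CTCF core in 0.613, 0.443 and 1.13% against 3.79, 2.52 and 2.99%. These 3 motifs had the same direction in all 3 classes. The members between the limits held the CTCF core in 4.71, 3.26 and 3.04%, more than either. TAATTA lay in 8.79, 6.09 and 3.52% of higher and 11.1, 7.36 and 4.39% of lower members. The members between held it in 8.65, 5.62 and 2.97%, less than either. ATTTGCAT lay in 1.43, 1.77 and 0.464% of higher and 3.64, 2.45 and 1.86% of lower members. Among members between it lay in 2.55, 1.48 and 1.13%, so the higher members were not below them in the middle class. Annotation told the directions apart less, with 48.5% of higher and 46.6% of lower members in introns and 4.79 and 4.74% in exons.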

How the data were processed

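The deposited matrix holds raw counts per barcode: UMIs per gene and transposase cut sites per peak, as the authors made them with cellranger-arc 2.0.1 (per the file headers) on mm10, with Seurat 4.0 in the submitters' processing notes. How peaks were called is not given in the sources used here. The deposited fragments of the same barcodes gave fragment counts and profiles. Recounted cut sites came to 100.1% of the matrix counts and were equal in 78.7% of peaks. A spot was kept if it had 500 to 6000 detected genes and no more than 20% of UMIs from mitochondria. Ratios are CPM of muscle-rich over comparison spots with exact conditional binomial intervals, shares have Clopper-Pearson intervals, and a group at 0 was set at 3 counts. Nothing was tested for significance. Peaks named were the 12 with the highest lower bound, the 10 with the lowest upper bound, the 5 with most counts and the 2 with most counts per gene list. In addition, genes with many members were named after their values were seen, and examples within the lists were chosen with values known. The members, spot groups and lists were all chosen with earlier results of these data known. Sequences and introns are from RefSeq GRCm38 and GENCODE M21, and copies were searched with blastn 2.17.0. The ratio step was tested on simulated data with independent counts. A fragment here can give 2 counts, so the coverage of the intervals in the simulation does not carry over. Software was python 3.11.15, scipy 1.17.1 and pysam 0.24.0. Alternatives were other spot numbers, comparison spots, minimums, distances, scalings and counting of fragments. Some items are not reported here.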

Additional observations from a re-analysis of the deposited data

Results flagged for a closer look

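Fragments outside the count matrix also fell in distal peaks. The fragment list held 507 barcodes that the matrix does not, with 5833396 fragments, of which 245549 (4.21%) overlapped a distal peak. In the kept spots 5.42% of fragments did. Of the overlapping fragments of these barcodes 9.77% fell in members higher in muscle-rich spots and 11.1% in the lower ones, whereas the kept spots had 17.1 and 6.01% (muscle-rich), 9.48 and 13.3% (middle) and 6.57 and 16.7% (comparison). Of their fragments 52.8% were short, below the length of DNA around a nucleosome. No RNA value belongs to these barcodes in the matrix, and they entered no comparison.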

How the results depend on the processing

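No paired analysis was possible because there was 1 library per assay. No result with a called direction was reversed, but the balance of lower over higher members did under 1 setting: with a narrower comparison group, the lowest spots by muscle share, 1771 (16.6%) were higher and 1706 (16%) lower. With other minimums the numbers of higher and lower members went with the number of peaks read: 4572 and 7308 with at least 20 counts, 4705 and 7525 with no minimum beyond 1 count, 806 and 1204 with at least 100 counts, and 927 and 1422 with at least 50 fragments in place of cut sites. They did not with other numbers of muscle-rich spots, 2459 and 4867 of 19790 with 100 and 2869 and 4030 of 27430 with 300. With short fragments alone (below nucleosome length), an alternative chosen after seeing the data, they were 144 and 282. As shares they ran from 10.5 to 16.6% and from 14.7 to 24.6% over all settings, the mean of the spots' own CPM (also added later) included. The distal share of counts was 28.5% as fragments, 19.8% for 20 to 100 kb, 28.8% by peak centre and 28.5% from genes with at least 10 UMIs. Summed ratios moved for muscle contraction genes with the 100 richest spots (1.13) and with genes of at least 10 UMIs (1.24), for connective genes with the latter (1.37) and with short fragments (1.62), and for neuron genes with short fragments (0.791). The cause was not tested. Of 484 pairs of a named peak and a setting 457 stayed within the main interval, the 12 highest peaks at 3.86 to 21.7 and the 10 lowest at no more than 0.185. RNA medians of nearest genes stayed within 10% of their values. The limits are 1 library per assay, spots that are no replicates, a median of under 100 counts per distal peak, and peaks as deposited, which set the regions that could be compared.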
